A study of Mus musculus with 158 samples.

Results

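Single cells labelled as neurons of the CA1 field of the hippocampus were set against single cells labelled as cortical neurons, both collected by patch pipette from acute brain slices of C57/BL6/N mice. The members were the slice cells labelled hippocampus CA1 (15 cells from 17 libraries) and the slice cells labelled cortex whose titles carry the letter P (16 cells from 19 libraries), 36 of the 158 samples in all. A repeat library of a cell was added to its first library, which was the case for 5 cells. All 31 cells were labelled as neurons and as untreated, and the labels gave neither the age nor the sex of the mice, and did not explain the letter P. No label said which mouse, slice or day a cell came from, so each region stands as 1 sample, no difference between the regions could be tested, and every comparison below is a description of these cells. PolyA libraries were made with a strand-marking kit, after 3 rounds of antisense RNA amplification by the design text, which speaks of cultured cortical cells and does not mention slices.

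CA1 pyramidal neurons are the output cells of the hippocampus proper and are known for synaptic plasticity driven by AMPA and NMDA type glutamate receptors and by the calcium-dependent kinase CaMKII. Cortical pyramidal neurons lie in several layers, and the layers differ in their transcription factors, among them Fezf2 in neurons that project below the cortex. The transcription factor Zbtb20 is known to set hippocampal identity in the mouse, and Nr2f1 is known to pattern the neocortex along its axes.

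The 15 CA1 cells held 77857119 counts in all and the 16 cortical P cells 104846393. Single cells had 535369 to 14594389 counts in CA1 and 2018232 to 16251918 in cortex. A level is given here in CPM, the counts of a gene per 1000000 counts of all genes, summed over the cells of a region unless a single cell is named. A gene was called detected in a cell when it had at least 5 counts after the cell had been thinned to 1000000 counts, a depth that 14 CA1 and all 16 cortical cells reached. Thinned CA1 cells had 586 to 2742 detected genes (median 1898), and cortical cells had 313 to 6172 (median 1620.5). The 50 most abundant genes took 19.3% to 72.5% of the counts of a CA1 cell and 14.8% to 95.7% of those of a cortical cell. CA1-17 (586 genes) and the cortical cells P27 (313 genes), P14 (380 genes) and P21 (566 genes) stood apart in this respect, and 2 CA1 and 6 cortical cells had under 1000 detected genes. General neuronal markers added up to 1421 CPM or more in every CA1 cell and in all cortical cells but P14 (866 CPM) and P21 (20.9 CPM). P21 held 22853 CPM of astrocyte, 13442 CPM of microglial and 12752 CPM of oligodendrocyte markers, which goes against its label. Libraries came from either of 2 basecalling versions, which were spread over both regions: 5 CA1 and 5 cortical cells had a library of the older version and 11 CA1 and 12 cortical cells one of the newer.

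Of the 11878 genes measured (at least 10 counts over all cells and a count in at least 3 cells), 5132 (43.2%) had the higher level in CA1, and the median log2 ratio of CA1 over cortex was -0.26. A gene was counted as past the rule of size when its higher level was at least 10 CPM, when the log2 ratio of CPM + 1 was at least 1 in size both for the summed level and for the mean of the cells' own CPM, and when the share of cells with the gene differed the same way by at least 25 percentage points. By this rule 172 genes were higher in CA1 (1.45% of the genes measured) and 354 were lower (2.98%), so 32.7% of the genes past the rule were higher. With DESeq2 size factors, which moved the median of all genes up by 0.43 to 0.18, the split was 210 higher and 278 lower, or 43.03% higher. In none of the 11878 genes measured did all cells of one region lie above all cells of the other. The 172 and the 354 genes were thus no different from the rest in this. The single highest cell held a median of 52.6% of the CA1 counts of a gene that was higher, and 56.5% of the cortical counts of a gene that was lower. Without the cells that had under 1000 detected genes, 110 of the 172 higher and 326 of the 354 lower genes were still past the rule. Without P21, 145 genes were past it as higher and 460 as lower. In simulated data, of the genes given no difference between the regions, a share close to the observed one also passed the rule. The simulation drew each gene independently in each cell, so it held no glial RNA shared by the genes of a cell. With 1 sample a region, these counts are not numbers of genes that differ between CA1 and cortex. No single gene past the rule is shown to differ.

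**Figure D1:**
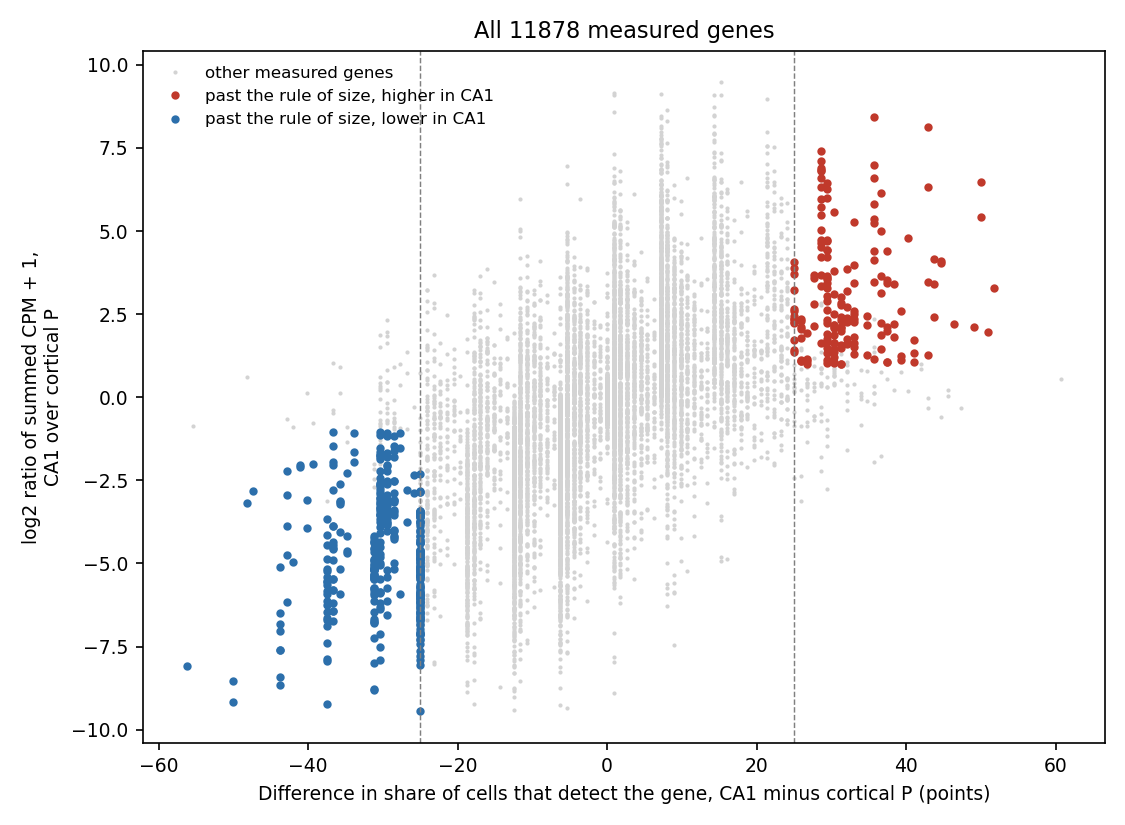
Each point is 1 of the 11878 genes measured, with the share of CA1 cells minus the share of cortical P cells that have the gene (percentage points) on the horizontal axis and the log2 ratio of summed CPM + 1, CA1 over cortical P, on the vertical axis. Dashed lines stand at 25 points either way; the 172 genes past the rule and higher in CA1 lie at the upper right and the 354 lower in CA1 at the lower left.

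The label CA1 was checked first against genes known to mark CA1 pyramidal neurons. Of 7 measured, 5 had the higher level in CA1, and 1 passed the rule in each direction. Among all genes measured 1.45% passed it as higher and 2.98% as lower, the shares to set beside each list below. Fibcd1, a transmembrane receptor used as a marker of CA1, was at 43.4 CPM in CA1 cells and had no count in cortical cells, where a count of 0 allows up to 0.0286 CPM. Detection was in 4 of 14 CA1 cells (CA1-3, CA1-15, CA1-18 and CA1_34) and in 0 of 16 cortical cells. Wfs1, an endoplasmic reticulum protein enriched in CA1, was at 175 CPM in CA1 and 51.9 CPM in cortex, detected in 5 CA1 and 3 cortical cells, and did not pass the rule. The POU factor Pou3f1 was at 165 CPM in CA1 and 8.74 CPM in cortex, detected in 4 CA1 and 2 cortical cells. Mpped1 was at 396 CPM in CA1 and 587 CPM in cortex. Nov, a secreted matricellular protein of the same list, lay in the other direction, with 0.514 CPM in CA1 and 119.4 CPM in cortex and detection in 1 CA1 and 6 cortical cells. No gene of this list was detected in 3 of 14 CA1 cells and in 4 of 16 cortical cells, so the list did not separate the regions cell by cell. These 4 cortical cells (P14, P21, P27 and P32) had under 1000 detected genes, and so did CA1_25 among the CA1 cells.

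Genes of hippocampal pyramidal neurons in general were seen in more of the cells: all 14 CA1 cells had at least 1 of the 8 measured, while 5 of 16 cortical cells had none. Those cortical cells were P19 and the cells P14, P21, P27 and P32, which each had under 1000 detected genes. Without the cells that had under 1000 detected genes, the median difference in detection of this list was 5.83 points, against 11.6 with all cells. In this list 5 of 8 were at the higher level in CA1, with a median log2 ratio of 0.18, and Zbtb20 and Cnih2 passed the rule. Cnih2, cornichon 2, an auxiliary protein of AMPA receptors, was at 83.5 CPM in CA1 and 4.04 CPM in cortex and was detected in 7 CA1 and 4 cortical cells. The calcium sensor Hpca was at 556 CPM in CA1 and 607 CPM in cortex. Genes of other hippocampal fields (CA2, CA3 and dentate gyrus) had 6 of 11 at the higher level in CA1, and none passed the rule.

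Zbtb20 was among the genes with the largest difference in detection. Its level ran from 0 to 3293 CPM over the CA1 cells (median 7.89), and from 0 to 395 CPM over the cortical cells (median 0). It was detected in 9 of 14 CA1 cells (64.3%, exact 95% interval 35.1% to 87.2%) and in 2 of 16 cortical cells (12.5%, 1.55% to 38.3%), intervals that cover counting of cells only. One cortical cell, P22, which also had Gad1, held 98.4% of the cortical Zbtb20 counts and lay inside the CA1 range. Most CA1 cells lay above most cortical cells, a pattern that naming a gene by its difference in detection favours. The summed level was 328.6 CPM in CA1 (exact Poisson 95% interval 324.5 to 332.6) and 32.8 CPM in cortex (31.7 to 33.9), a log2 ratio of 3.28. Such intervals cover counting error only, since reads of amplified copies were counted and not molecules. The 5 CA3 slice neurons of the series all had Zbtb20, at 1116 CPM, whereas none of 5 cortical slice cells with the title letter F had it (0.462 CPM). The mouse gene lies at chr16:42875689-43634392 (RefSeq, GRCm38.p6).

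**Figure D2:**
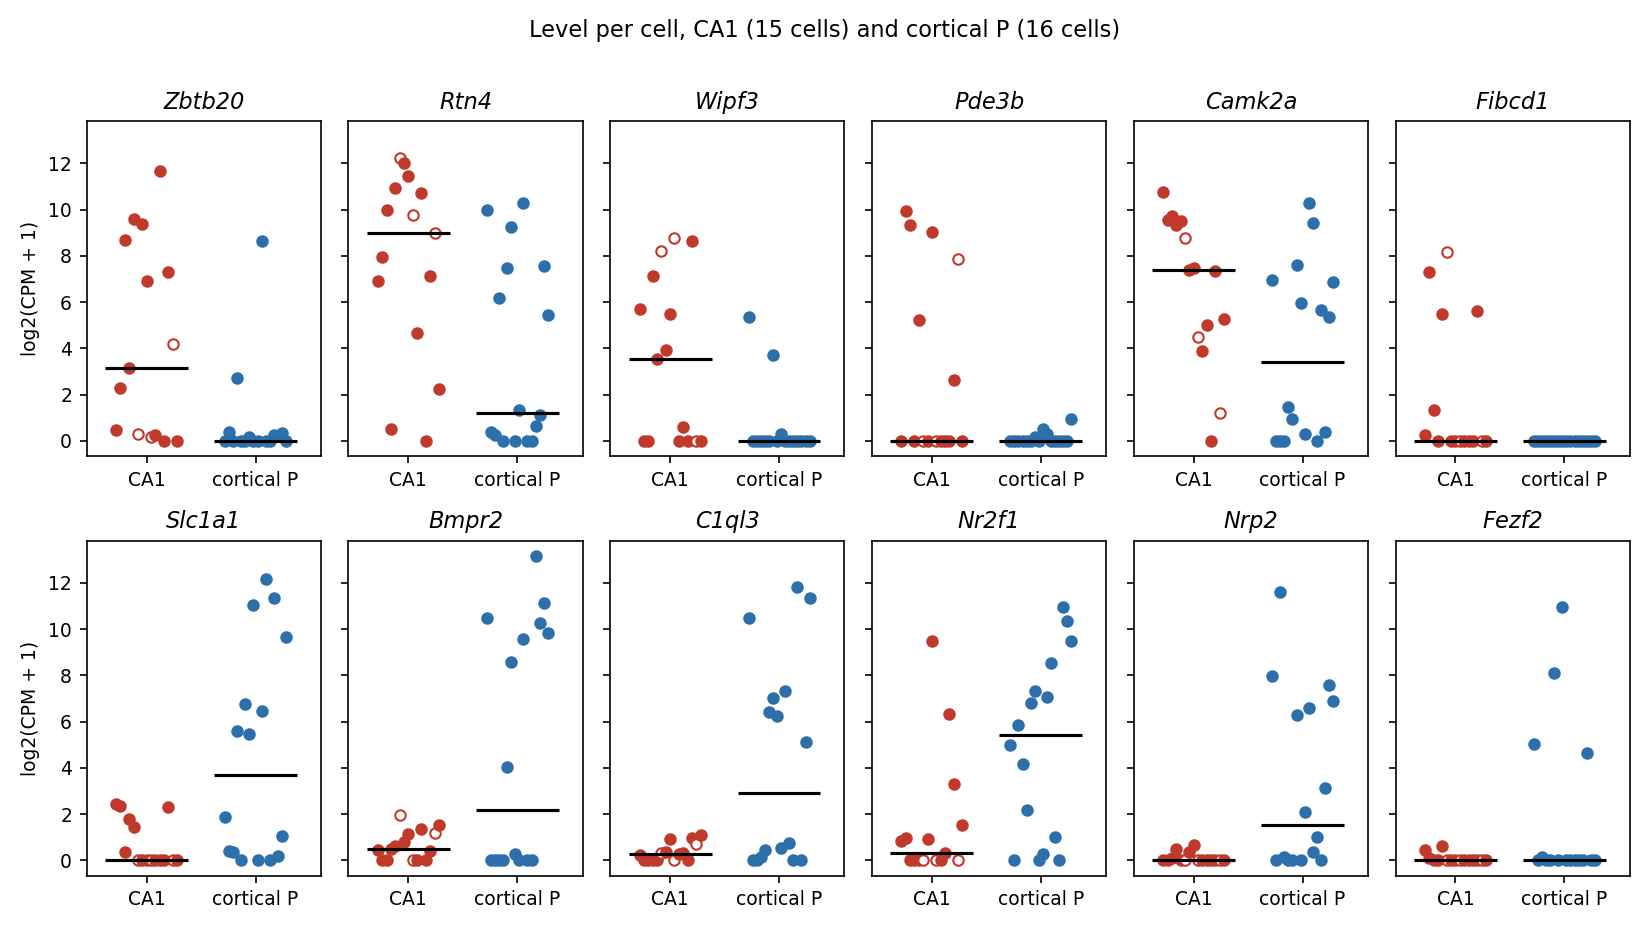
The level of 12 genes in each cell, as log2(CPM + 1), with the 15 CA1 cells in red on the left of each panel and the 16 cortical P cells in blue on the right; hollow points are the 3 CA1 cells with Gad1 at 50 CPM or more and black lines are medians. Zbtb20, Rtn4, Wipf3, Pde3b, Camk2a and Fibcd1 have more CA1 cells at a high level, and Slc1a1, Bmpr2, C1ql3, Nr2f1, Nrp2 and Fezf2 more cortical cells, with cells near 0 in both regions for each gene.

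The genes of cortical layers lay the other way. Of 25 measured, 18 had the higher level in cortex, with a median log2 ratio of -1.40. The median came to -0.27 with DESeq2 size factors and to -0.17 without the 2 CA1 and 6 cortical cells that had astrocyte markers at 5000 CPM or more. Fezf2, a factor of subcortical projection neurons, was at 0.0514 CPM in CA1 and 117.5 CPM in cortex and passed the rule, detected in 0 CA1 and 4 cortical cells, with P20 at 1987 CPM. Bcl11b (Ctip2), which marks the same deep-layer neurons and is also known in CA1, was past the rule as higher in CA1, at 649 CPM in CA1 and 273 CPM in cortex, and was detected in 9 CA1 and 4 cortical cells. Its log2 ratio of 1.25 turned to -1.29 among the 6 CA1 and 4 cortical cells with microglial markers under 50 CPM. No layer gene was detected in 2 of 14 CA1 cells and in 3 of 16 cortical cells. These 3 cortical cells (P15, P21 and P27) had under 1000 detected genes, and so did CA1_25 among the CA1 cells. Some genes of this list with large level differences did not pass the rule. Rprm, at 0.835 CPM in CA1 and 1181 CPM in cortex, was almost all from P14, which had 40063 CPM. Mef2c, an activity-regulated factor of upper-layer neurons, was at 55.7 CPM in CA1 and 1068 CPM in cortex, and the detection in 7 CA1 and 10 cortical cells differed by under 25 points.

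The patterning factors were split, with 8 of 15 at the higher level in CA1. Nr2f1 (COUP-TF1) ran from 0 to 714 CPM over CA1 cells (median 0.256) and from 0 to 1971 CPM over cortical cells (median 44.3), and was detected in 2 of 14 CA1 and 10 of 16 cortical cells. CA1-5 held 96.0% of the CA1 counts, and CA1_29, too shallow for detection, had 80.3 CPM, above the cortical median. The summed level was 31.4 CPM in CA1 and 293.03 CPM in cortex, a log2 ratio of -3.18 that came to -0.44 among the 6 CA1 and 4 cortical cells with microglial markers under 50 CPM. Nfix, a nuclear factor I gene, was at 0.231 CPM in CA1 and 185 CPM in cortex and was also past the rule, with 0 CA1 and 5 cortical cells, but it had a log2 ratio of 0.02 among the cells with few microglial markers. The POU factor Pou3f3, which is not a member of this list, was at 408 CPM in CA1 and 4.78 CPM in cortex. It passed the rule as higher in CA1 (6 CA1 and 1 cortical cell). Tcf4, a basic helix-loop-helix factor, was at 1350 CPM in CA1 and 185 CPM in cortex; with detection in 13 CA1 and 11 cortical cells it did not pass the rule.

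The 15 genes named as higher in CA1 were those with the largest difference in detection whose direction also held within each basecalling version, without the CA1 cells that had Gad1, and without cells with microglial markers. Besides Zbtb20 they were Dnajb5, Sash1, Msi2, Rtn4, Nucks1, Wipf3, Kcnab2, Vmp1, Gorasp2, Pde3b, Acbd4, Tfap2a, Cox6b1 and Uqcrq. Rtn4 encodes Nogo, a membrane protein that limits neurite growth. It ran from 0 to 4872 CPM over CA1 cells (median 507) and from 0 to 1237 CPM over cortical cells (median 1.34). Of the cells, 13 of 14 in CA1 and 7 of 16 in cortex had Rtn4, and its summed level was 1212 CPM in CA1 and 282 CPM in cortex, a log2 ratio of 2.10. By the detection threshold most CA1 cells thus had Rtn4 and most cortical P cells did not, with ranges that overlapped. Only 1 CA1 cell and 4 cortical cells had no Rtn4 count at all. The choice of these 15 genes by detection difference favours this pattern, so it is not a result about them. All 5 cortical slice cells with the title letter F had Rtn4, at 733 CPM.

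Pde3b, a phosphodiesterase that breaks down cyclic AMP, had 0 to 972 CPM in CA1 cells and 0 to 0.926 CPM in cortical cells, with a median of 0 in both. It was detected in 6 of 14 CA1 cells and 0 of 16 cortical cells (exact 95% upper bound 20.6%), and the summed levels were 309.3 CPM in CA1 and 0.105 CPM in cortex. None of the 5 CA3 cells had it (0.109 CPM). The actin regulator Wipf3 was at 86.4 CPM in CA1 and 4.11 CPM in cortex, detected in 8 CA1 and 2 cortical cells. The potassium channel beta subunit Kcnab2 was at 63.9 CPM in CA1 and 2.60 CPM in cortex, detected in 7 CA1 and 1 cortical cell. The RNA-binding protein Msi2 (57.7 CPM in CA1, 0.362 CPM in cortex) and the scaffold Sash1 (100.5 CPM in CA1, 0.143 CPM in cortex) were each detected in 7 CA1 cells and in no cortical cell. One CA1 cell held 90.3% of the CA1 counts of Sash1. The co-chaperone Dnajb5 was detected in 8 CA1 cells and 1 cortical cell, at 23.04 CPM in CA1 and 5.11 CPM in cortex. Nucks1, a chromatin protein, was at 456 CPM in CA1 and 98.5 CPM in cortex (10 CA1 and 4 cortical cells). The autophagy membrane protein Vmp1 was at 65.04 CPM in CA1 and 5.24 CPM in cortex, and the Golgi stacking protein Gorasp2 was at 230 CPM in CA1 and 42.4 CPM in cortex. Each of these was detected in 7 CA1 cells and 1 cortical cell, and a single cortical cell held 99.1% of the cortical Vmp1 counts. Acbd4, an acyl-CoA binding protein, and the transcription factor Tfap2a were each detected in 6 CA1 cells and in no cortical P cell. Of the 5 cortical slice cells with the title letter F, 4 had Nucks1 (624 CPM) and 3 had Msi2 (136 CPM, above the CA1 level). Cox6b1 was detected in 3 of these 5 cells and Uqcrq in 2. Dnajb5, Wipf3, Kcnab2, Vmp1 and Gorasp2 were each detected in 1 of the 5, and Pde3b, Sash1, Acbd4 and Tfap2a in none.

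The 15 genes named as lower in CA1, chosen in the same way, were Slc1a1, Bmpr2, C1ql3, Nr2f1, Ttyh1, Zmiz1, Nrp2, Cckbr, Gabrb1, Arsb, Sox9, Slc39a10, Wdr6, Nlgn1 and Cebpg. Slc1a1 encodes EAAC1, the neuronal glutamate transporter. It ran from 0 to 4.44 CPM over CA1 cells (median 0) and from 0 to 4600 CPM over cortical cells (median 23.1). It was detected in 0 of 14 CA1 cells (exact 95% upper bound 23.2%) and in 9 of 16 cortical cells (56.3%, 29.9% to 80.2%). The regions overlapped at the low end, where 9 CA1 cells and 3 cortical cells had no count. The summed level was 1.27 CPM in CA1 (1.03 to 1.55) and 618 CPM in cortex (613 to 623). The gene lies at chr19:28835135-28913960.

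Bmpr2, a receptor for bone morphogenetic proteins, had at most 2.91 CPM in a CA1 cell and at most 9135 CPM in a cortical cell, with summed levels of 0.552 CPM in CA1 and 892 CPM in cortex. C1ql3, a secreted synapse-organizing protein, was at 0.231 CPM in CA1 and 453 CPM in cortex. Both were detected in 0 of 14 CA1 cells and 8 of 16 cortical cells, and P32 was the highest cortical cell for both, with 53.9% of the Bmpr2 counts and 42.7% of the C1ql3 counts. Nrp2, a semaphorin coreceptor, was at 0.0771 CPM in CA1 and 369.4 CPM in cortex and was detected in 0 CA1 and 7 cortical cells, with 87.1% of the cortical counts in P15. Cckbr, the cholecystokinin B receptor, was at 0.0514 CPM in CA1 and 204 CPM in cortex (0 CA1 and 7 cortical cells). Gabrb1, a GABA-A receptor subunit, was at 0.231 CPM in CA1 and 161 CPM in cortex (0 CA1 and 7 cortical cells). Nlgn1, neuroligin 1, a postsynaptic adhesion protein of excitatory synapses, was at 0.437 CPM in CA1 and 102 CPM in cortex (1 CA1 and 8 cortical cells). For these genes nearly all CA1 cells were near 0 while fewer than 10 cortical cells carried the level. The choice of the genes by detection difference favours this pattern, so it is not a result about them. Zmiz1, a transcriptional coregulator, the lysosomal sulfatase Arsb, the zinc transporter Slc39a10 and Wdr6 were detected in 0 CA1 and 7 cortical cells each. Cebpg, a bZIP factor, was at 16.1 CPM in CA1 and 455 CPM in cortex (1 CA1 and 8 cortical cells).

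Sox9 and Ttyh1 are better known from astroglia than from neurons. Sox9 was at 0.783 CPM in CA1 and 159 CPM in cortex (0 CA1 and 7 cortical cells), and Ttyh1 at 63.3 CPM in CA1 and 453 CPM in cortex (3 CA1 and 11 cortical cells). Without the 2 CA1 and 6 cortical cells that had astrocyte markers at 5000 CPM or more, the log2 ratio was -6.20 for Sox9 and -4.95 for Ttyh1. The astrocyte markers, of which Sox9 is one, still had a median log2 ratio of -1.57 among the cells that were left. The part of astrocyte RNA in the levels of Sox9 and Ttyh1 was not tested.

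**Figure D3:**
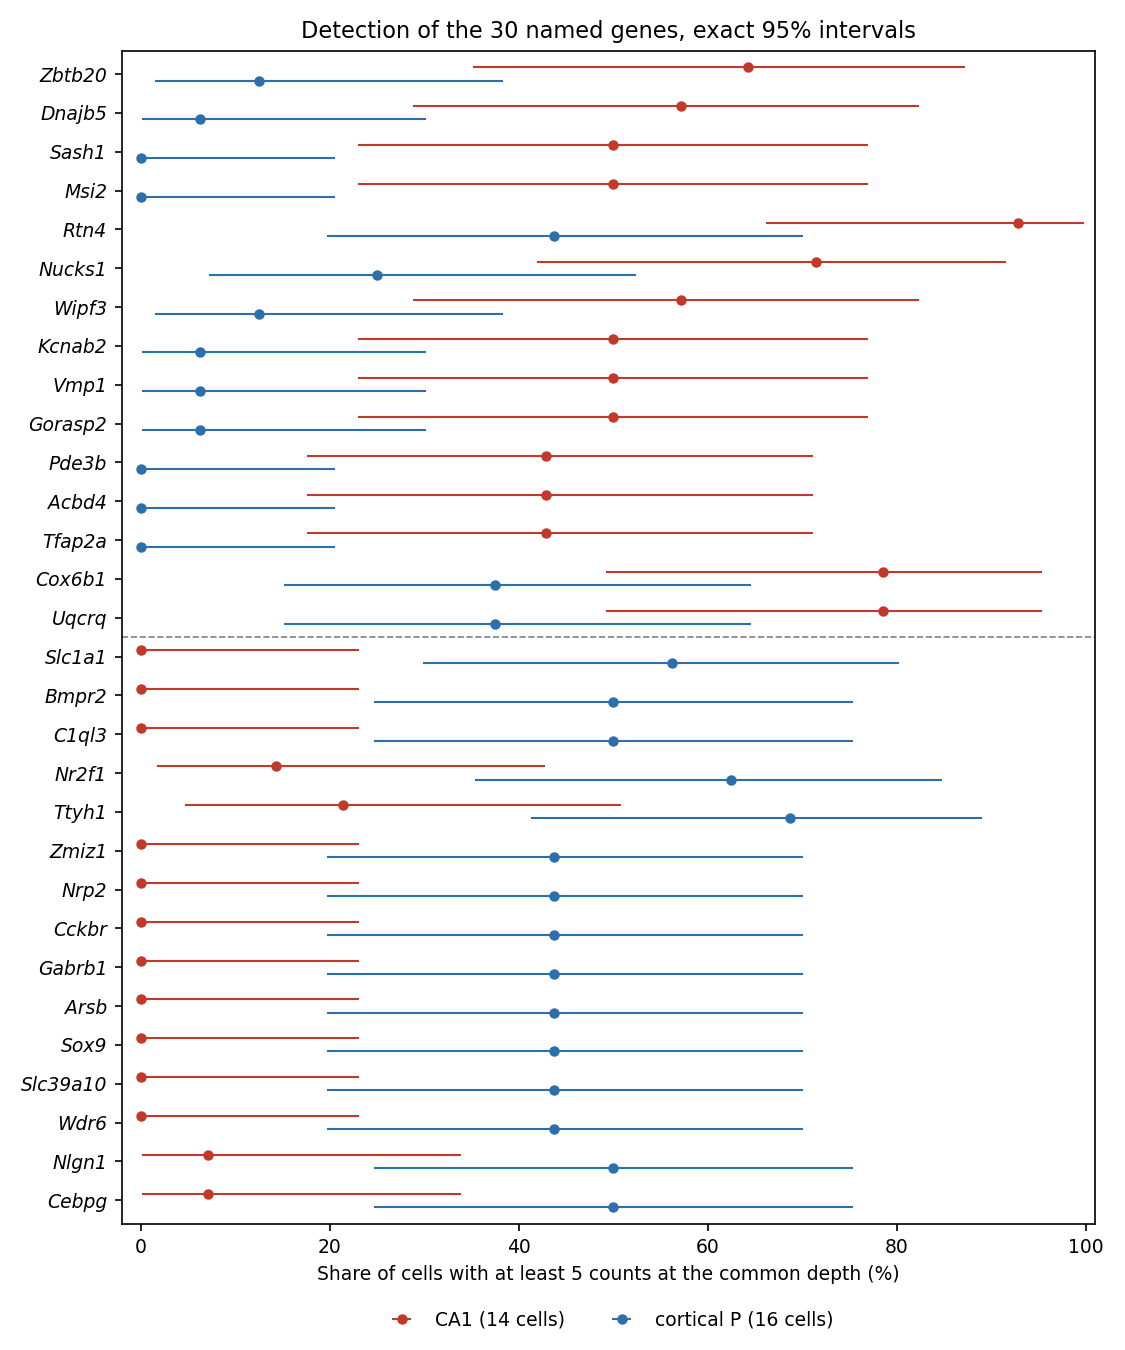
Share of cells (percent) in which each of the 30 named genes was detected at 1000000 counts per cell, for 14 CA1 cells in red above 16 cortical P cells in blue, with exact 95% intervals. The 15 genes higher in CA1 lie above the dashed line; the shares reach from 42.9% to 92.9% in CA1 for these, and from 43.8% to 68.8% in cortex for the 15 genes below it.

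Glutamate receptor genes are given by family. Among AMPA receptor subunits and auxiliary proteins 8 of 12 had the higher level in CA1, with a median log2 ratio of 0.52. The auxiliary proteins were split: Shisa6 was at 98.9 CPM in CA1 and 0.0382 CPM in cortex (5 CA1 and 0 cortical cells), and Cnih2 was higher too, but Shisa9 was at 0.103 CPM in CA1 and 24.4 CPM in cortex (0 CA1 and 5 cortical cells). One CA1 cell held 81.5% of the Shisa6 counts. The subunit Gria1 was at 1153 CPM in CA1 and 513 CPM in cortex and was detected in 12 cells of each region. Gria4 was at 5.92 CPM in CA1 and 655 CPM in cortex, a difference that did not pass the rule of size. Among NMDA receptor genes 5 of 6 had the higher level in CA1, and the obligatory subunit Grin1 passed the rule, at 206 CPM in CA1 and 21.7 CPM in cortex (8 CA1 and 4 cortical cells). Grin1 was no longer past it without the cells that had under 1000 detected genes, and neither was Cnih2, and the NMDA list had a median log2 ratio of -0.02 in the older basecalling version, against 2.48 in all libraries. In the kainate family 3 of 7 were higher and 1, Grik2, passed the rule, at 0.180 CPM in CA1 and 19.9 CPM in cortex (0 CA1 and 6 cortical cells). The median log2 ratio of the family was -1.48, but 0.06 when each cell had equal weight. Grik1 was at 1071 CPM in CA1 and 0.868 CPM in cortex and did not pass the rule, since nearly all of it came from CA1_41. Of the metabotropic receptors 2 of 6 had the higher level in CA1 and Grm8 passed the rule as lower, at 0.103 CPM in CA1 and 43.6 CPM in cortex, with a log2 ratio of 0.07 among the cells with few microglial markers. With DESeq2 size factors neither Shisa9 nor Grik2 passed the rule.

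Of the GABA receptor genes, 11 of 14 were at the lower level in CA1, with a median log2 ratio of -2.10 (-0.97 with DESeq2 size factors), and Gabrb1 passed the rule. The receptors for monoamines, acetylcholine and cannabinoids had 12 of 16 at the lower level. Cnr1, the CB1 cannabinoid receptor, was at 34.3 CPM in CA1 and 591 CPM in cortex (2 CA1 and 8 cortical cells), and Adrb1, the beta-1 adrenergic receptor, also passed the rule, at 2.25 CPM in CA1 and 47.4 CPM in cortex (1 CA1 and 6 cortical cells). For this list the median log2 ratio was -1.52 and came to -0.05 without the cells that had high astrocyte markers.

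Ion channel genes lay near the median of all genes. Of 50 potassium and HCN channel genes 22 had the higher level in CA1. Beside 1.45% and 2.98% of all genes, 1 was past the rule as higher (Kcnab2) and 4 as lower. The last were Kcnf1, a silent voltage-gated subunit (0.0128 CPM in CA1, 49.7 CPM in cortex, 0 CA1 and 6 cortical cells), Kcnip3 (0.0514 CPM in CA1, 62.5 CPM in cortex), Kcnt2 and Kcnh1, the last not past the rule with DESeq2 size factors. The median log2 ratio of the 50 genes was -0.28, against 0.48 with DESeq2 size factors, which put the median of all genes at 0.18. Of 25 sodium and calcium channel genes 12 had the higher level in CA1.

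Calcium signalling genes showed 18 of 37 at the higher level in CA1. Past the rule were 2 as higher and 3 as lower, beside 1.45% and 2.98% of all genes. Camk2a, the alpha subunit of CaMKII, ran from 0 to 1745 CPM over CA1 cells (median 165) and from 0 to 1260 CPM over cortical cells (median 20.8). It was detected in 13 of 14 CA1 and 8 of 16 cortical cells, with summed levels of 484 CPM in CA1 and 200.1 CPM in cortex. Its log2 ratio of 1.27 turned to -0.87 among the 6 CA1 and 4 cortical cells with microglial markers under 50 CPM. Camk2d, the delta subunit, lay the other way at 0.514 CPM in CA1 and 209 CPM in cortex (1 CA1 and 6 cortical cells), and so did the plasma membrane calcium pump Atp2b4 at 0.488 CPM in CA1 and 128 CPM in cortex (1 CA1 and 7 cortical cells). Prkca, protein kinase C alpha, was at 644 CPM in CA1 and 106 CPM in cortex (7 CA1 and 4 cortical cells), and was not past the rule without the cells that had under 1000 detected genes.

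At the synapse, both the presynaptic and the postsynaptic lists were mixed. Of 37 presynaptic genes 18 had the higher level in CA1, and, beside 1.45% of all genes, 3 passed the rule as higher. These were the calcium sensor of release Syt1 (1748 CPM in CA1, 846 CPM in cortex, 13 CA1 and 10 cortical cells), the vesicle phosphoprotein Syn1 (171 CPM in CA1, 32.5 CPM in cortex, 8 CA1 and 5 cortical cells) and the v-SNARE Vamp2 (29.9 CPM in CA1, 5.51 CPM in cortex, 7 CA1 and 4 cortical cells). Syn1 had a log2 ratio of -2.67 in the older basecalling version. Syt16 was lower, at 2.68 CPM in CA1 and 319 CPM in cortex (1 CA1 and 7 cortical cells). Of 34 postsynaptic and adhesion genes 12 had the higher level in CA1. The scaffold Dlg4 (PSD-95) was at 189 CPM in CA1 and 59.6 CPM in cortex (9 CA1 and 5 cortical cells), while the related Dlg1 (SAP97) was at 21.4 CPM in CA1 and 399.5 CPM in cortex (3 CA1 and 8 cortical cells). Homer2, a scaffold of the same synapses, was at 210 CPM in CA1 and 43.8 CPM in cortex (5 CA1 and 1 cortical cell). It had a log2 ratio of -0.36 in the older basecalling version. Without the cells that had under 1000 detected genes Syt1, Syn1 and Dlg4 were not past the rule, and without the CA1 cells with Gad1 neither were Syt1, Syn1 and Vamp2. For Dlg4 the log2 ratio of 1.65 came to -0.30 among the cells with few microglial markers.

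Of the guidance and adhesion families, 6 of 17 Eph receptors and ephrins, 12 of 39 semaphorin, plexin, netrin and Slit genes and 7 of 18 cadherins were at the higher level in CA1, beside 43.2% of all genes measured. With DESeq2 size factors the numbers were 9 of 17, 24 of 39 and 9 of 18. The median of all genes was then 0.18, so most genes measured had the higher level in CA1. Epha7, an ephrin receptor, was past the rule as higher in CA1, at 269.5 CPM in CA1 and 51.8 CPM in cortex (7 CA1 and 4 cortical cells). It was not past the rule with either other scaling. Nrp2 and Plxna3, semaphorin receptor components, and the cadherins Cdh2 and Cdh10 were past it as lower, Cdh10 not with DESeq2 size factors. The list of neuropeptides and secreted signals had 12 of 23 at the higher level in CA1. Its 4 genes past the rule were all lower, beside 2.98% of all genes. These 4 were Nov, the pentraxin Nptx1 (1.04 CPM in CA1, 63.4 CPM in cortex), the peptide Adcyap1, which encodes PACAP, and the neuregulin Nrg3. Nrg3 was at 0.283 CPM in CA1 and 122.1 CPM in cortex (0 CA1 and 4 cortical cells).

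Cytosolic ribosomal protein genes had 65 of 78 at the higher level in CA1, with a median log2 ratio of 0.71, which was 1.54 in the older and 0.26 in the newer basecalling version. Rpl7a, Rpl27a and Rpl28 passed the rule as higher, 3 of 78 genes beside 1.45% of all genes. Rpl28 was at 700 CPM in CA1 and 157 CPM in cortex (10 CA1 and 7 cortical cells). None of the list passed it without the cells that had under 1000 detected genes. Nuclear genes of the respiratory chain had 48 of 76 at the higher level, with a median of 0.34 (-0.11 in the older and 0.48 in the newer basecalling version). Of these 76 genes 8 passed the rule as higher, beside 1.45% of all genes. Among those, Atp5g1, Ndufa11, Ndufb7, Ndufb8 and Ndufs6 were not past the rule without the CA1 cells with Gad1. Without the cells that had under 1000 detected genes 4 passed it as higher and 3 as lower, and Cox6b1 was not among those higher. Cox6b1, a subunit of cytochrome c oxidase, was at 359 CPM in CA1 and 141 CPM in cortex, and Uqcrq, a subunit of complex III, was at 331.6 CPM in CA1 and 100.5 CPM in cortex. Each was detected in 11 CA1 and 6 cortical cells. Uqcrq had a log2 ratio of 0.13 in the older version and 3.61 in the newer.

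Among immediate early genes 9 of 20 had the higher level in CA1, and Jun passed the rule, at 207 CPM in CA1 and 30.7 CPM in cortex (8 CA1 and 4 cortical cells). Of 12 heat shock genes 5, and of 13 glucocorticoid receptor and responsive genes 5, had the higher level in CA1, and none passed the rule. With DESeq2 size factors 14 of 20 immediate early genes and 8 of 12 heat shock genes had the higher level in CA1. So did 25 of 37 calcium signalling and 25 of 37 presynaptic genes. With these factors the median of all genes was 0.18, so most genes measured had the higher level in CA1.

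**Figure D4:**
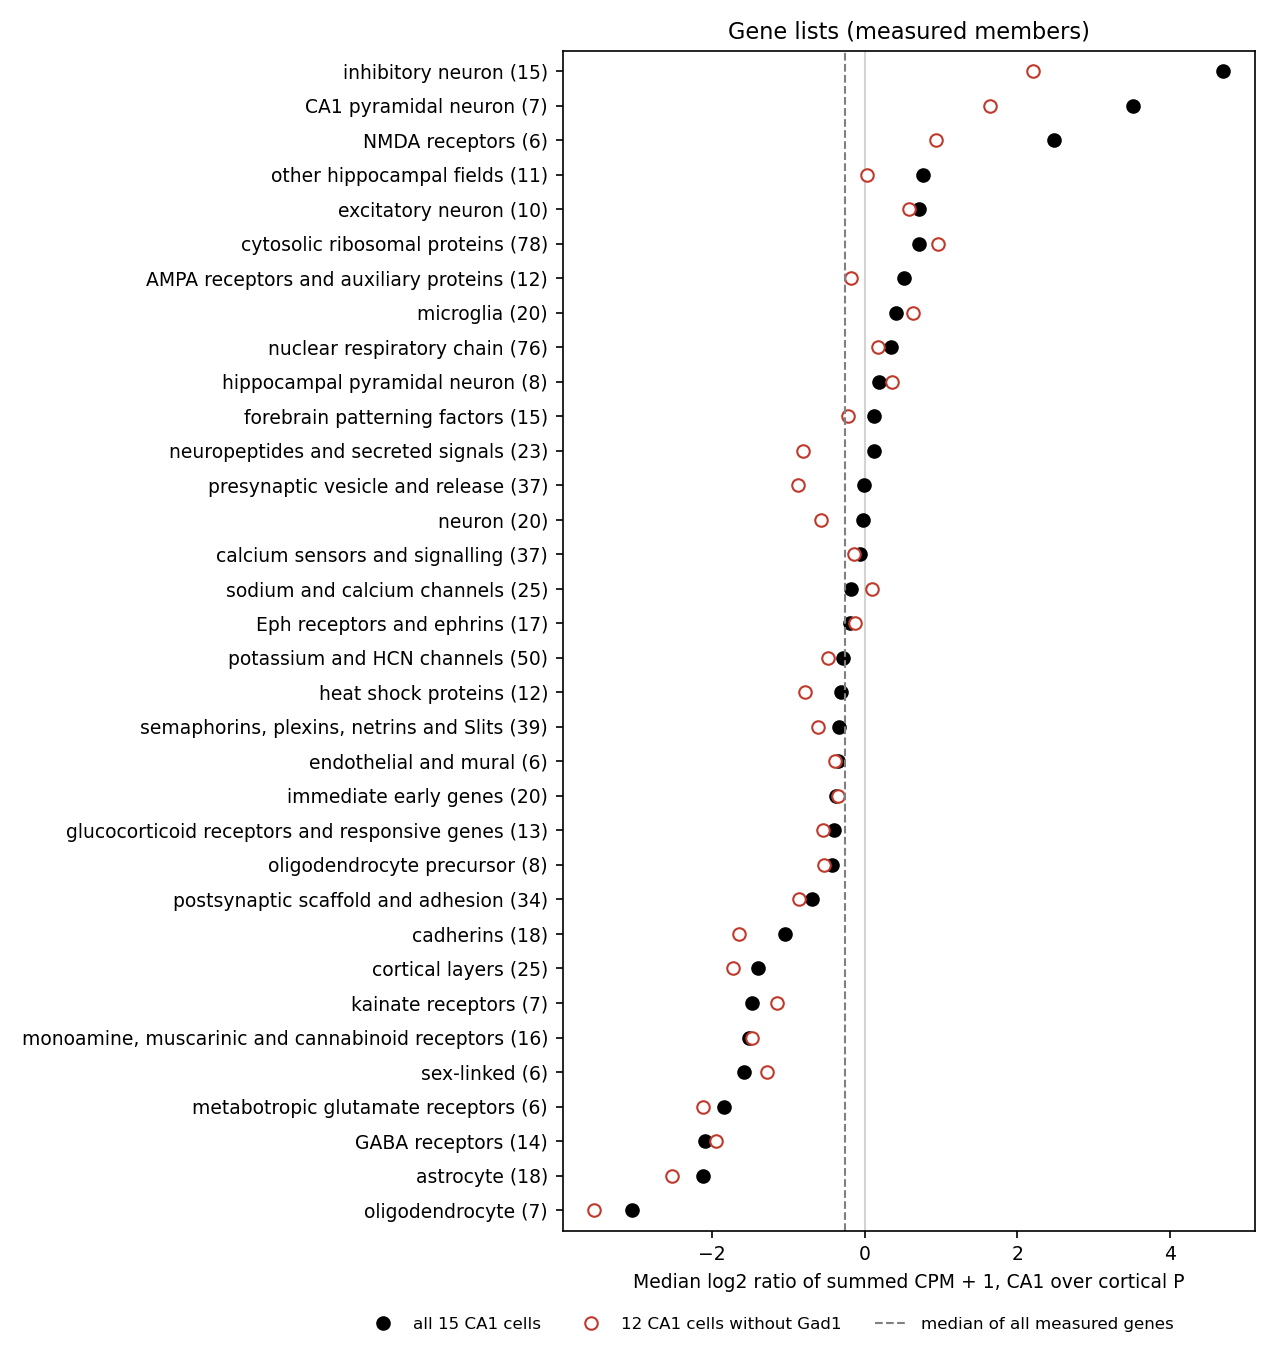
Median log2 ratio of summed CPM + 1, CA1 over cortical P, for the measured members of each gene list; black points use all 15 CA1 cells and open red points the 12 CA1 cells with Gad1 under 50 CPM. The dashed line is the median of all measured genes, -0.26; inhibitory neuron markers lie farthest to the right, at 4.70, and oligodendrocyte markers farthest to the left, at -3.04.

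Gad1, the enzyme that makes GABA, marks inhibitory neurons, and 3 CA1 cells had it at 50 CPM or more: CA1_20 at 6295 CPM, CA1_35 at 662 CPM and CA1-3 at 111 CPM. The next CA1 cell, CA1-17, had 15.8 CPM. CA1_20 and CA1_35 had 9 and 10 inhibitory markers detected, Gad1 included, and the levels of the list added up to 11757 CPM in CA1_20 and 11374 CPM in CA1_35. CA1-3 carried the pyramidal markers Fibcd1, Spink8 and Wfs1 beside 638 CPM of Pvalb. CA1_41 had little Gad1 (3.39 CPM) but 9 other inhibitory markers, 3873 CPM in sum, and so stayed among the 12. In cortex 1 cell, P22, had Gad1 at 605 CPM. Over the list, 13 of 15 measured inhibitory markers had the higher level in CA1, and the vesicular GABA transporter Slc32a1 (112.2 CPM in CA1, 0.172 CPM in cortex) and Pvalb (84.9 CPM in CA1, 2.31 CPM in cortex) passed the rule. The summed level of the list ran from 1.01 to 11757 CPM over CA1 cells (median 350.97) and from 0 to 1599 CPM over cortical cells (median 13.0). Excitatory markers were at the higher level in CA1 in 6 of 10, and every CA1 cell of the 14 had at least 2 of them detected, while 2 of 16 cortical cells had none. These 2 cells, P15 and P27, had under 1000 detected genes. General neuronal markers were at the higher level in CA1 in 9 of 20, and their sum ran from 1421 to 29588 CPM over CA1 cells and from 20.9 to 50929 CPM over cortical cells.

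Without the 3 CA1 cells with Gad1, 181 genes were higher in CA1 and 550 lower, and 62.4% of the higher and 61.5% of the lower ones had been past the rule with all cells. The count of lower genes therefore grew by over 1.5 times, with 11 CA1 cells left for detection. Zbtb20 kept its direction with a log2 ratio of 3.63, and Nr2f1 with -2.85. The median of the AMPA list came to -0.18 and that of the NMDA list to 0.93. The CA1 marker list had a median of 1.64 without them, against 3.51 with all cells. The inhibitory list had a median of 2.21, against 4.70 with all cells, and CA1_41 was still among the cells. Slc32a1, Pvalb and Epha7 were then not past the rule. Neither were Syt1, Syn1, Vamp2, Rpl7a and the respiratory chain genes Atp5g1, Ndufa11, Ndufb7, Ndufb8 and Ndufs6. Camk2a was then at a log2 ratio of 1.54.

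Markers of glia were present in cells of both regions. Of 18 astrocyte markers measured 15 had the higher level in cortex and 4 passed the rule as lower in CA1: Sox9, Apoe (268 CPM in CA1, 1104 CPM in cortex), Slc1a2 (712 CPM in CA1, 2838 CPM in cortex) and Slc1a3 (1.59 CPM in CA1, 37.3 CPM in cortex). With DESeq2 size factors Apoe and Slc1a2 did not pass, and Apoe did not without the cells that had under 1000 detected genes. The sum of the list ran from 0 to 14501 CPM over CA1 cells (median 577) and from 0.656 to 95103 CPM over cortical cells (median 2502). P27, the cell with the fewest genes, had 91515 CPM of Slc1a2 alone, and Aldh1l1 was at 0 in both regions. The 7 oligodendrocyte markers measured were all at the higher level in cortex, with Cnp past the rule, at 0.0642 CPM in CA1 and 53.8 CPM in cortex, and their sum ran from 0 to 13227 CPM over CA1 cells and from 0.187 to 12752 CPM over cortical cells. Without the cells with high astrocyte markers 5 of the 7 had the higher level in CA1. Microglial markers had 14 of 20 at the higher level in CA1 with none past the rule. Their sum ran from 0.253 to 25647 CPM over CA1 cells (median 2089) and from 0.495 to 30767 CPM over cortical cells (median 3217), and it reached 50 CPM in 9 of 15 CA1 cells and 12 of 16 cortical cells. Of the oligodendrocyte precursor markers 4 of 8, and of the vascular markers 1 of 6, had the higher level in CA1. The part of RNA from such cells in the differences between the regions was not tested, and neither was that of the 6 cortical cells with under 1000 genes.

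**Figure D5:**
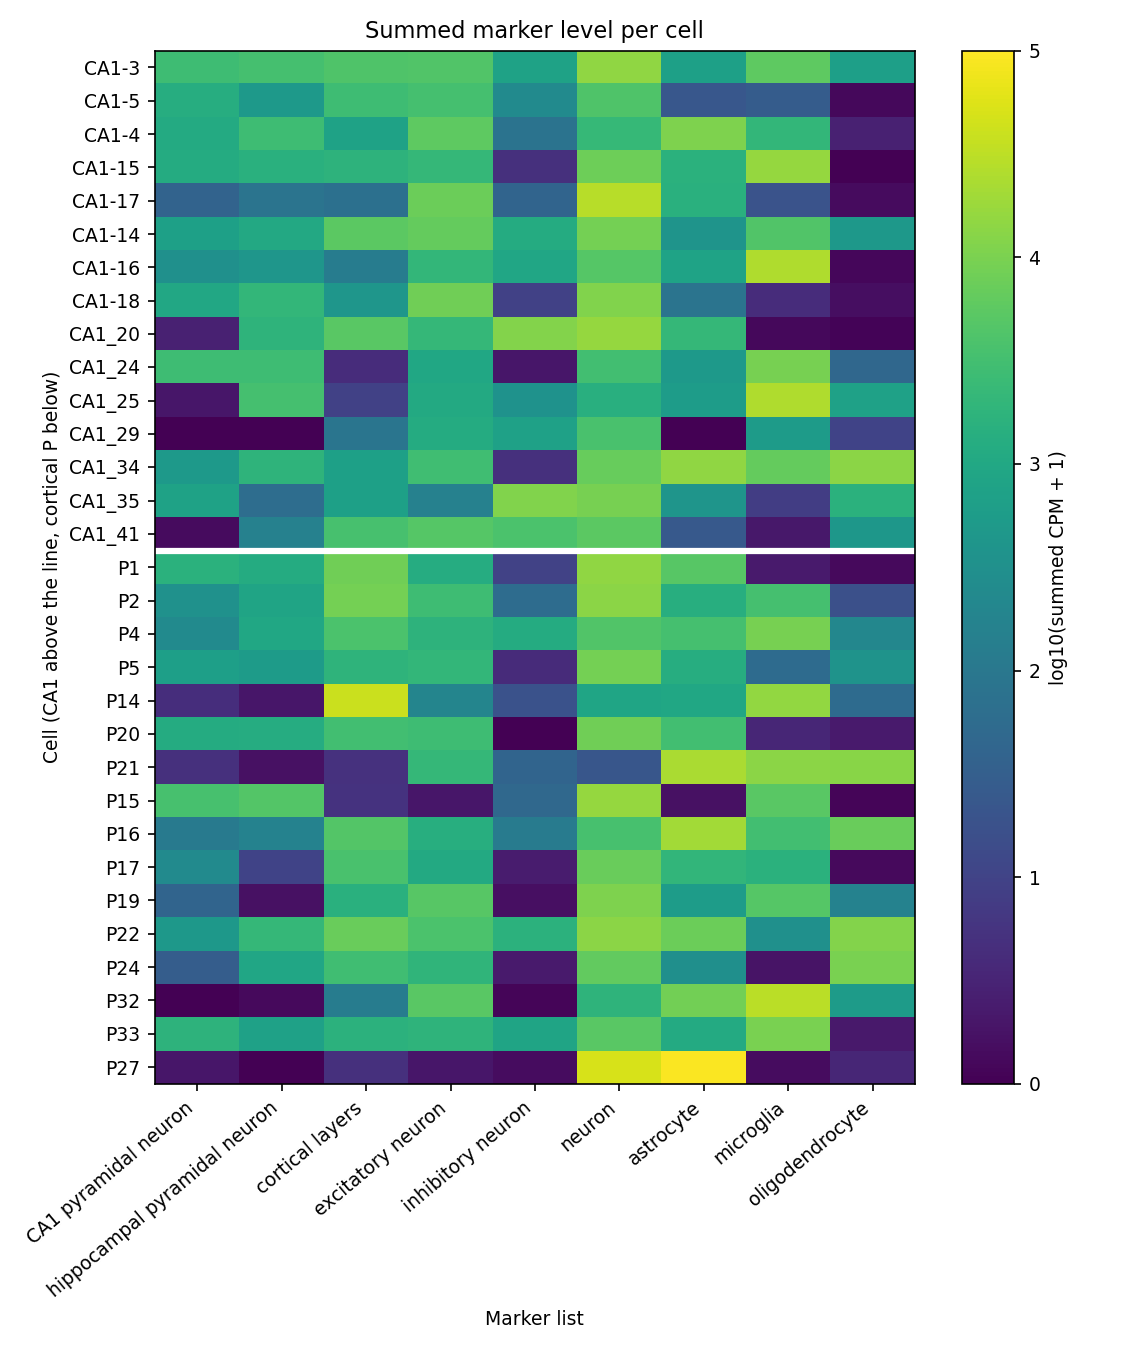
Summed CPM of 9 marker lists in each cell, as log10(CPM + 1), with the 15 CA1 cells above and the 16 cortical P cells below. Brighter (yellow) fields are higher sums and darker fields are lower sums. Inhibitory markers reach 11757 CPM in CA1_20 and 11374 CPM in CA1_35, and astrocyte markers 95103 CPM in P27.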

How the data were processed

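The authors deposited 1 table of gene counts (21956 gene rows, 158 libraries). Per the submitters' processing notes, bcl2fastq, STAR, HTSeq and mm10/GRCm38 were used; their settings, annotation and strand option (not given in the sources used here) leave it possible that overlapping, antisense and near-identical genes share reads. The table holds no mitochondrially encoded gene, and 27 rows carry names turned into dates. Counts of repeat libraries, which correlated at 0.964 to 0.994 (Pearson, across genes; at most 0.553 with other libraries), were added per cell. CPM, log2 ratios with a pseudocount of 1 and thinning used Python 3.11.15, numpy 2.4.6 and pandas 2.3.3; exact intervals used scipy 1.17.1; other scalings used edgeR 4.0.16 and DESeq2 1.42.0. The script was tested on simulated data. With 1 sample a region no model was fitted and no p-value computed. The summed level gives deep cells more weight, so the rule of size also asks the mean of the cells' CPM. The cells, the 35 gene lists and the rules were chosen with earlier results of these data known. The 15 genes named per direction had the largest detection differences among the 126 higher and 258 lower genes that kept their direction in the 4 checks named in the report. Other genes were named as the members of their list past the rule, or as known markers of it. Pou3f3 is on none of the lists and was named outside this rule. Some genes of these lists are not reported here.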

Additional observations from a re-analysis of the deposited data

How the results depend on the processing

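The number of genes past the rule of size depended on which cells and which measure were used. As a share of the 11878 genes measured, 1.45% were higher and 2.98% lower in CA1 by the rule as reported. The median of the cells' CPM gave 0.960% and 0.379%, no demand on detection 19.7% and 24.98%, and a detection difference of 40 points 0.160% and 0.194%. Without the CA1 cells with Gad1 the shares were 1.52% and 4.63%, and without P22 as well 1.81% and 3.52%. Leaving out cells with microglial markers (6 CA1 and 4 cortical cells left) gave 10.5% and 6.00%. Without cells with under 1000 genes the shares were 1.55% and 8.40%. The older basecalling version alone gave 1.41% and 15.7%, and the newer 3.55% and 2.37%. Leaving out the deepest cell of each region gave 2.36% and 2.12%. Leaving out cells with high astrocyte markers, an alternative chosen after seeing the data, gave 2.11% and 4.95% with 13 CA1 and 10 cortical cells. Leaving out 1 cell at a time gave 1.20% (without P27) to 2.09% (without P2) higher and 2.33% (without P2) to 3.96% (without P27) lower. TMM scaling gave 1.43% and 2.91%, and DESeq2 size factors 1.77% and 2.34%. For the 30 named genes 0 of 1590 log2 ratios under the alternatives changed sign, but much of this was fixed in advance. Of these alternatives 4 were part of the choice of the genes, and the mean of the cells' CPM was part of the rule of size. Alternatives that altered only the count filter, the detection demands, the thinning depth or the pseudocount could not change the sign of the ratio. With the median of the cells' CPM the ratio was 0 for Sash1, Pde3b and Acbd4, so that their direction was lost, and it was near 0 for Cckbr (-0.07), Zmiz1 (-0.11) and Wdr6 (-0.15). The cause of these changes was not tested. No paired analysis was possible because no label pairs a CA1 cell with a cortical cell. Detection at 1000000 counts left out CA1_29, which had 535369.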

Other observations

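Some genes differed in detection far more than in level, and are given as values chosen after they were seen. Tomm6, a small subunit of the mitochondrial import channel, was detected in 12 of 14 CA1 cells and 4 of 16 cortical cells, the largest difference in detection among the 11878 genes measured, while its summed level was 16.8 CPM in CA1 and 11.1 CPM in cortex. Negr1, a neuronal adhesion protein, was detected in 1 of 14 CA1 cells and 10 of 16 cortical cells, at 146 CPM in CA1 and 266 CPM in cortex. Cyp46a1, the neuronal enzyme that turns cholesterol into 24-hydroxycholesterol, was detected in 2 CA1 and 10 cortical cells although its summed level was the higher one in CA1, at 100.5 CPM in CA1 and 65.1 CPM in cortex.

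Y-linked genes lay in different directions. Eif2s3y was at 32.9 CPM in CA1 and 108 CPM in cortex and was past the rule as lower in CA1, with detection in 2 of 14 CA1 cells and 7 of 16 cortical cells, but not with DESeq2 size factors or without the CA1 cells with Gad1. Ddx3y was at 131 CPM in CA1 and 28.99 CPM in cortex, with detection in 3 of 14 CA1 cells and 5 of 16 cortical cells, and did not pass the rule. Among the 6 CA1 and 4 cortical cells with microglial markers under 50 CPM the log2 ratio of Eif2s3y, -1.68 over all cells, turned to 2.82. The labels give no sex for these mice.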
